A study of Homo sapiens with 6 samples.

Results

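The aminoacyl-tRNA synthetases described here are 37 listed genes, chosen by symbol from the 19437 genes of the deposited table, and they encode enzymes of the cytosol and of the mitochondrion. The samples were 3 libraries of SCC9 cells transduced with an adenovirus carrying TEADi, which the series title ties to inhibition of TEAD, a family of DNA-binding transcription factors, and 3 libraries of SCC9 cells transduced with an adenovirus carrying GFP, the control. SCC9 is an established human line from a squamous carcinoma of the tongue, grown in all 6 libraries with serum and hydrocortisone, transduced 1 day after plating at a multiplicity of infection of 25, and harvested 48 h after transduction. The labels name no separate cultures beyond transduction in triplicate, and p-values therefore reflect how much these libraries vary, a variation that may be technical.

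An aminoacyl-tRNA synthetase joins an amino acid to its own tRNA, using ATP, and so sets which amino acid each codon receives. Cytosolic and mitochondrial translation mostly use separate nuclear genes for this step, the mitochondrial enzyme being imported, although GARS and KARS each encode the glycyl and lysyl enzymes of both compartments. In the cytosol several synthetases sit in the multi-synthetase complex, which is held together by the scaffold proteins AIMP1, AIMP2 and EEF1E1. Many cytosolic synthetase genes are known to be induced by ATF4, a transcription factor made when uncharged tRNA activates the kinase GCN2 (EIF2AK4).

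Values are read counts scaled by the authors to library size with TMM factors (CPM), and each is a share of the RNA in a library, so that fewer cells of a type and less RNA per cell cannot be told apart. Library totals lay between 827124 and 873465 CPM with TEADi and between 887396 and 915558 CPM with GFP. Divided by each library's smallest value they came to between 9589768 and 14481849 with TEADi and between 11703661 and 15380584 with GFP, the closest guide to depth in these files. Of 12 epithelial markers 4 reached the level needed for the test, and 3 of these were called lower. KRT8 averaged 101 ± 4.36 CPM with TEADi and 207 ± 20.2 CPM with GFP (SD, n = 3 libraries each, here and below). KRT18 averaged 61.2 ± 2.24 CPM with TEADi and 78.1 ± 3.57 CPM with GFP, and EPCAM 1.74 ± 0.366 CPM with TEADi and 2.98 ± 0.674 CPM with GFP. KRT7, at 3.12 ± 0.452 CPM with TEADi and 3.31 ± 0.884 CPM with GFP, was not called. The epithelial markers KRT14, TP63 and CDH1 were at most 0.181 CPM in each TEADi library and at most 3.57 CPM in each GFP library, while KRT5 was 0.173, 0.216 and 0.302 CPM across the TEADi libraries in letter order, against 21.7 CPM (A), 17.2 CPM (B) and 0.414 CPM (C) with GFP. Of 7 fibroblast markers 5 were called higher, 1 was called lower and 1 was not called, and they summed to 1200 to 1268 CPM with TEADi and 542 to 706 CPM with GFP. Most of that difference was DCN, at 675 ± 19.5 CPM with TEADi and 54.5 ± 5.57 CPM with GFP, while COL1A1 was the marker called lower, at 254 ± 19.7 CPM with TEADi and 379 ± 67.5 CPM with GFP. Among 3 leukocyte and endothelial markers only CD68 was tested, and it was called higher, at 745 ± 36.1 CPM with TEADi and 284 ± 3.13 CPM with GFP. The part of these markers in the results below was not tested.

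With TEADi most synthetase transcripts were lower. All 37 passed the filter on low values, and 27 were called lower, 1 was called higher and 9 were not called (limma on log2(CPM + 1), two-sided, Benjamini-Hochberg adjusted p under 0.05 over 13640 genes tested). Among all genes tested 35.3% were called lower and 25.5% higher, 60.8% in all, and these shares are the measure for the counts of each group of synthetases below. In 29 of the 37 genes every TEADi value lay below every GFP value, against 38.1% of all genes tested, and 12 were called lower by at least 0.5 on the log2 scale, against 16.7%. Fold changes are on the log2(CPM + 1) scale, which understates the change of low genes. The median fitted log2 fold change, TEADi minus GFP, was -0.37 over the 37 genes and -0.07 over all genes tested. The summed level of the 37 transcripts was 3544, 3671 and 3752 CPM with TEADi, against 4971, 4685 and 4733 CPM with GFP, each group in the order A, B, C, which is used for every list of values below. These sums made up 0.428% to 0.431% of the library totals with TEADi and 0.528% to 0.543% with GFP, so the groups did not overlap. The scaling moved the count of lower calls: it was 23 after scaling to equal totals or by median-ratio factors and 24 after quantile normalization, beside 30.2%, 29.0% and 33.3% of all genes called lower.

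**Figure D1:**
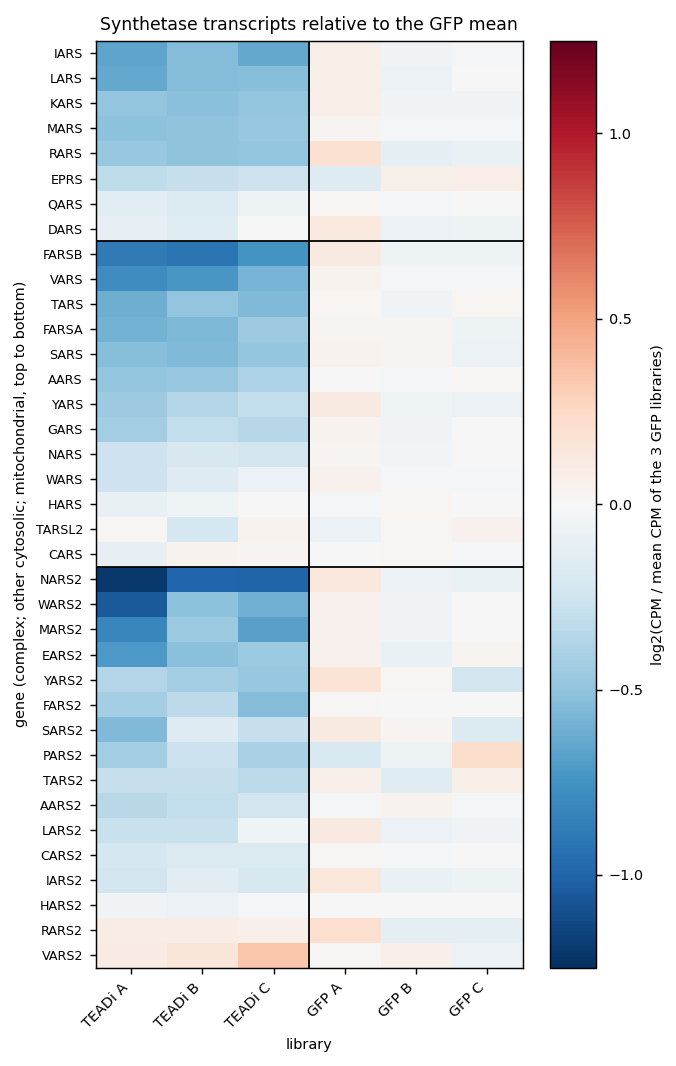
Level of each synthetase transcript (rows, grouped as enzymes of the multi-synthetase complex, other cytosolic enzymes and mitochondrial enzymes) in each of the 3 TEADi and 3 GFP libraries (columns), as log2 of its CPM over the mean of the 3 GFP libraries. Most rows are blue in the TEADi columns, NARS2 and FARSB most deeply, while CARS, HARS, HARS2 and TARSL2 stay near white and VARS2 is pale red.

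**Figure D2:**
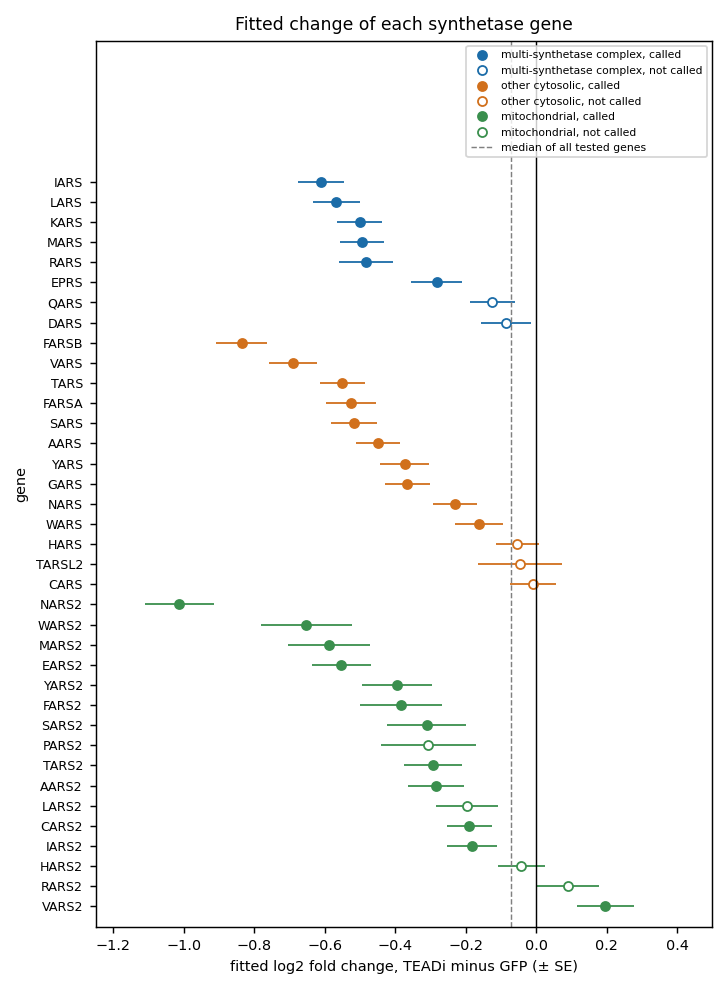
Fitted log2 fold change, TEADi minus GFP, of the 37 genes with its SE (horizontal axis, log2 scale), filled where called and open where not, with the median of all genes tested as a dashed line at -0.07. Of the 37 estimates 35 lie below 0, and the lowest is NARS2 at -1.01.

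In the multi-synthetase complex, 6 of 8 enzymes were called lower and 0 higher, with a median log2 fold change of -0.49. IARS, the isoleucyl enzyme on chromosome 9 (hg19, 94972489 to 95056038, minus strand), stood at 137, 150 and 139 CPM in the TEADi libraries and at 228, 210 and 214 CPM in the GFP libraries. Every TEADi value lay below every GFP value, and the log2 fold change was -0.61 ± 0.07 (SE; limma adjusted p = 5.1e-07). LARS, the leucyl enzyme, which also takes part in leucine sensing upstream of mTORC1, stood at 198, 212 and 213 CPM with TEADi and at 325, 293 and 308 CPM with GFP. KARS, which charges lysine in both compartments, stood at 172, 168 and 171 CPM with TEADi and at 256, 235 and 234 CPM with GFP. Both fell without overlap between the groups, with log2 fold changes of -0.57 ± 0.07 for LARS and -0.50 ± 0.06 for KARS.

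The other enzymes of the complex changed less. MARS, the methionyl enzyme, averaged 183 ± 2.81 CPM with TEADi and 258 ± 6.17 CPM with GFP, and RARS, the arginyl enzyme, 162 ± 1.43 CPM with TEADi and 228 ± 27.9 CPM with GFP. The wide spread of RARS came from GFP library A, at 260 CPM against 209 and 216 CPM in GFP libraries B and C, all of them above the highest TEADi value of 164 CPM. EPRS, a fused protein that charges both glutamate and proline, fell to 183 ± 3.32 CPM with TEADi, against 224 ± 21.0 CPM with GFP, and here GFP library A was the lowest of its group at 200 CPM. QARS, the glutaminyl enzyme, averaged 110 ± 4.68 CPM with TEADi and 120 ± 1.88 CPM with GFP (limma adjusted p = 0.0993), and DARS, the aspartyl enzyme, 150 ± 8.09 CPM with TEADi and 159 ± 12.1 CPM with GFP (limma adjusted p = 0.315). Neither was called. The scaffolds of the complex were called lower, 3 of 3, with a median of -0.65, beside 35.3% of all genes tested. EEF1E1, which links the complex to elongation factor 1, averaged 31.0 ± 1.05 CPM with TEADi and 54.3 ± 2.34 CPM with GFP (log2 fold change -0.79 ± 0.07), AIMP1 47.4 ± 1.26 CPM with TEADi and 74.5 ± 4.47 CPM with GFP, and AIMP2 41.7 ± 2.19 CPM with TEADi and 65.9 ± 5.87 CPM with GFP.

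Of the 13 other cytosolic enzymes 10 were called lower and 0 higher, with a median log2 fold change of -0.37. FARSA and FARSB encode the alpha and beta subunits that together make up the cytosolic phenylalanyl enzyme. FARSB, on chromosome 2 (hg19, 223435255 to 223521056, minus strand), stood at 74.0, 72.5 and 81.5 CPM with TEADi and at 148, 131 and 131 CPM with GFP, and its log2 fold change of -0.84 ± 0.07 was the lowest of any cytosolic member (limma adjusted p = 3.7e-08). FARSA stood at 43.7, 44.4 and 47.8 CPM with TEADi and at 67.2, 67.0 and 62.7 CPM with GFP, a log2 fold change of -0.53 ± 0.07. Both subunits fell, FARSB further. The ratio of FARSB to FARSA within a library, which a factor common to the whole library cannot change, was 1.69, 1.63 and 1.70 with TEADi and 2.196, 1.95 and 2.09 with GFP, so that the groups did not overlap.

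VARS, the valyl enzyme, which binds the elongation factor 1 complex, could be read after its entries had been summed. The deposited table lists it on chromosome 6 (hg19, 31745295 to 31763730, minus strand) and on the alternative sequences COX and SSTO of the same MHC region, and in each library all but the smallest listed value sat in a single entry. In TEADi libraries A and B and in GFP library C this was the SSTO entry, with 256, 266 and 434 CPM. In TEADi library C and in GFP libraries A and B it was the chromosome 6 entry, with 294, 451 and 432 CPM. The sums of 256, 266 and 294 CPM with TEADi lay below the 451, 432 and 434 CPM with GFP, with a log2 fold change of -0.69 ± 0.07 (limma adjusted p = 2.2e-07). In the authors' deposited table, which keeps the entries apart, the ratio of TEADi to GFP was 0.333 for the chromosome 6 entry, 1.203 for SSTO and 1.07 for COX, with adjusted p of 0.278, 0.469 and 0.98. With the chromosome 6 entry alone, the fitted log2 fold change was -3.08 and the limma adjusted p was 0.307.

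**Figure D3:**
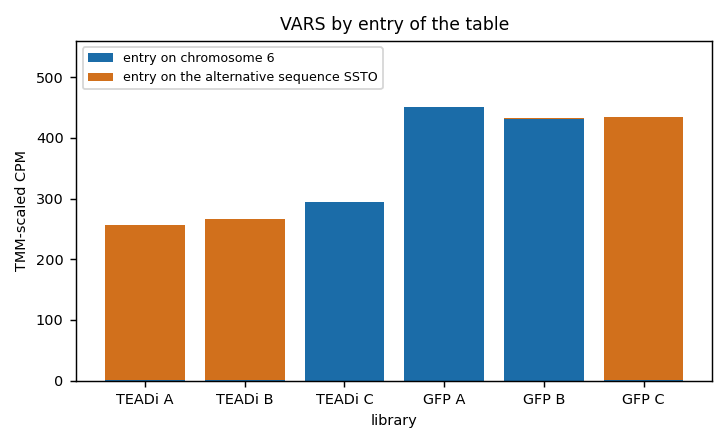
VARS in each library, in TMM-scaled CPM, with the bar coloured by the entry of the table that holds it (chromosome 6 or the alternative sequence SSTO). Colours mix within both groups, while bar heights run from 256 to 294 CPM with TEADi and from 432 to 451 CPM with GFP.

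Of the remaining cytosolic enzymes, TARS and SARS fell by at least 0.5 on the log2 scale. TARS, the threonyl enzyme, stood at 199, 215 and 208 CPM with TEADi and at 309, 294 and 308 CPM with GFP (log2 fold change -0.55 ± 0.06). SARS, the seryl enzyme, stood at 84.3, 83.6 and 87.5 CPM with TEADi and at 126, 125 and 116 CPM with GFP (-0.52 ± 0.06). In both genes each TEADi value was under the lowest GFP value. AARS, the alanyl enzyme, averaged 174 ± 7.17 CPM with TEADi and 238 ± 2.54 CPM with GFP. GARS, the glycyl enzyme of both compartments, averaged 188 ± 8.17 CPM with TEADi and 243 ± 7.97 CPM with GFP, and YARS, the tyrosyl enzyme, 123 ± 6.21 CPM with TEADi and 160 ± 11.3 CPM with GFP. NARS, the asparaginyl enzyme, was called lower with a smaller change, at 267 ± 5.51 CPM with TEADi and 313 ± 8.196 CPM with GFP. WARS, the tryptophanyl enzyme, which interferon is known to induce, averaged 80.6 ± 5.05 CPM with TEADi and 90.2 ± 2.74 CPM with GFP, at the edge of the threshold (log2 fold change -0.16 ± 0.07; limma adjusted p = 0.04999). Its limma adjusted p was 0.0666 to 0.205 without GFP library A, B or C or without TEADi library A or B, and 0.199, 0.311 and 0.379 with the 3 other scalings, so its call depends on these choices.

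CARS, HARS and TARSL2 were not called. CARS, the cysteinyl enzyme, averaged 123 ± 6.91 CPM with TEADi and 124 ± 1.83 CPM with GFP, and TARSL2, a cytosolic threonyl enzyme related to TARS, 8.28 ± 0.823 CPM with TEADi and 8.56 ± 0.376 CPM with GFP. Their log2 fold changes of -0.01 ± 0.07 and -0.05 ± 0.12 turned above 0 once libraries were scaled to equal totals or by median-ratio factors.

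HARS and HARS2, the cytosolic and mitochondrial histidyl enzymes, are neighbours on chromosome 5 that are read in opposite directions from a common start region. In the RefSeq annotation of GRCh38.p14 the start of HARS (minus strand) and that of HARS2 (plus strand) are separated by 84 bases, of which 59.5% are G or C. This stretch, shown because both genes start at its ends, is given on the plus strand (chr5:140691371-140691454), all in lower case.
HARS to HARS2: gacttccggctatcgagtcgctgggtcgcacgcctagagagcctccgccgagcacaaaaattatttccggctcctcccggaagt

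HARS stood at 128, 132 and 137 CPM with TEADi and at 135, 139 and 137 CPM with GFP. HARS2 stood at 59.0, 57.7 and 60.0 CPM with TEADi and at 61.0, 60.6 and 60.5 CPM with GFP. The HARS groups overlap, and the HARS2 groups are separated by less than 1 CPM. Neither was called, with log2 fold changes of -0.05 ± 0.06 for HARS and -0.04 ± 0.07 for HARS2 (limma adjusted p = 0.475 and 0.601), and both signs turned with each of the 3 other scalings. The ratio of HARS2 to HARS was 0.459, 0.437 and 0.439 with TEADi and 0.450, 0.435 and 0.440 with GFP. In the authors' hg19 table these genes overlap by 599 bases on opposite strands, and the use of strand in counting is not given in the sources used here. HARS2 also overlaps ZMAT2 by 625 bases on the same strand, and ZMAT2 has 160% of its level. HARS overlaps WDR55 by 952 bases on the opposite strand, and WDR55 has 70% of its level. Whether reads were shared between these genes was not tested.

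Of the 16 mitochondrial enzymes 11 were called lower and 1 higher, with a median log2 fold change of -0.30. NARS2, the mitochondrial asparaginyl enzyme on chromosome 11 (hg19, 78147007 to 78285919, minus strand), had the lowest log2 fold change of the family. It stood at 13.1, 15.2 and 15.0 CPM in the TEADi libraries and at 33.3, 28.6 and 28.5 CPM in the GFP libraries. The highest TEADi value lay well below the lowest GFP value, and the mean was 2.09-fold lower with TEADi (log2 fold change -1.01 ± 0.10; limma adjusted p = 1.4e-07). EARS2, the glutamyl enzyme, stood at 27.5, 31.5 and 32.8 CPM with TEADi and at 46.9, 42.7 and 46.3 CPM with GFP (-0.55 ± 0.08).

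WARS2 and MARS2 were low in all libraries and fell as well. WARS2, the mitochondrial tryptophanyl enzyme, stood at 6.21, 9.06 and 8.50 CPM with TEADi and at 13.3, 12.5 and 12.8 CPM with GFP (log2 fold change -0.65 ± 0.13). MARS2, the methionyl enzyme, stood at 6.56, 8.34 and 7.18 CPM with TEADi and at 12.0, 11.1 and 11.4 CPM with GFP (-0.59 ± 0.12). In both genes TEADi library A was the lowest of the 6 libraries. The other lower calls were changes of less than 0.5 on the log2 scale: YARS2 (21.2 ± 0.744 CPM with TEADi, 28.4 ± 3.90 CPM with GFP), FARS2 (6.78 ± 0.497 CPM with TEADi, 9.14 ± 0.0728 CPM with GFP), TARS2 (31.3 ± 0.605 CPM with TEADi, 38.7 ± 3.25 CPM with GFP) and AARS2 (25.7 ± 1.05 CPM with TEADi, 31.5 ± 0.807 CPM with GFP), the tyrosyl, phenylalanyl, threonyl and alanyl enzymes. The mitochondrial FARS2 acts as a single chain, unlike the cytosolic enzyme of FARSA and FARSB.

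SARS2, CARS2 and IARS2 were called lower with calls that depend on single libraries and on the scaling. SARS2, the seryl enzyme, averaged 15.0 ± 2.02 CPM with TEADi and 18.7 ± 1.85 CPM with GFP, with overlap between the groups, and its limma adjusted p of 0.0243 was 0.0663 without GFP library A, 0.0696 without GFP library B and 0.137 without TEADi library A. IARS2, the isoleucyl enzyme, averaged 143 ± 5.16 CPM with TEADi and 163 ± 14.1 CPM with GFP, and its limma adjusted p of 0.0354 became 0.101, 0.12 and 0.0977 when GFP library A, TEADi library A or TEADi library C was left out in turn. CARS2, the cysteinyl enzyme, averaged 74.4 ± 1.11 CPM with TEADi and 85.01 ± 1.04 CPM with GFP, and its limma adjusted p of 0.0163 was 0.0543 without TEADi library A. After scaling to equal totals, by median-ratio factors and by quantile normalization, the limma adjusted p was 0.0814, 0.137 and 0.155 for CARS2 and 0.164, 0.237 and 0.303 for IARS2. For SARS2 it was 0.071, 0.0905 and 0.0387, so that its call held under quantile normalization. LARS2 and PARS2, the leucyl and prolyl enzymes, were not called. LARS2 averaged 30.5 ± 2.83 CPM with TEADi and 35.04 ± 2.51 CPM with GFP (limma adjusted p = 0.0638, or 0.027 without TEADi library C). PARS2 averaged 4.77 ± 0.290 CPM with TEADi and 6.17 ± 0.904 CPM with GFP (limma adjusted p = 0.0582, or 0.0286 without GFP library A).

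VARS2 and RARS2 were the members with a positive estimate. VARS2, the mitochondrial valyl enzyme on chromosome 6 (hg19, 30876019 to 30894236, plus strand), stood at 46.8, 48.4 and 55.4 CPM with TEADi and at 43.9, 45.4 and 41.4 CPM with GFP. The lowest TEADi value lay just above the highest GFP value, and the log2 fold change was 0.20 ± 0.08 (limma adjusted p = 0.0419). Leaving out GFP library C gave a limma adjusted p of 0.13, leaving out TEADi library B gave 0.0596 and leaving out TEADi library C gave 0.227. VARS2 overlaps GTF2H4 on the same strand in the authors' table, a gene with 48.9% of its level that averaged 19.2 CPM with TEADi and 26.7 CPM with GFP. RARS2, the mitochondrial arginyl enzyme, averaged 42.2 ± 0.546 CPM with TEADi and 39.9 ± 5.43 CPM with GFP and was not called (limma adjusted p = 0.397). GFP library A, at 46.1 CPM, lay above the TEADi values, and GFP libraries B and C, at 36.9 and 36.6 CPM, below them. Without GFP library A, RARS2 had a log2 fold change of 0.20 and a limma adjusted p of 0.0284.

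Setting the compartments side by side, the mitochondrial enzyme had the higher log2 fold change in 8 of 13 pairs made of 1 cytosolic and 1 mitochondrial gene for the same amino acid, and the lower in 5. In this count threonine is represented by TARS. TARS2 (-0.29) was above TARS (-0.55) but below TARSL2 (-0.05). Some differences in this count were small: 0.01 for HARS2 minus HARS, -0.02 for YARS2 minus YARS and -0.09 for MARS2 minus MARS. The ratios of these pairs, and of SARS2 to SARS, overlapped between the groups. Outside this count are the amino acids whose cytosolic enzyme is a fused protein or is made of different subunits: EARS2 (-0.55) and PARS2 (-0.31) had lower log2 fold changes than EPRS (-0.28), and FARS2 (-0.38) had a higher one than FARSA (-0.53) and FARSB (-0.84). Valine and asparagine stood at the ends of this range. The ratio of VARS2 to VARS was 0.183, 0.182 and 0.188 with TEADi and 0.0973, 0.105 and 0.0955 with GFP. The ratio of NARS2 to NARS was 0.0502, 0.0558 and 0.0561 with TEADi and 0.104, 0.0938 and 0.0911 with GFP. Thus the valyl pair moved towards the mitochondrial transcript and the asparaginyl pair towards the cytosolic one, each without overlap between the groups. For arginine the ratio of RARS2 to RARS was 0.259, 0.265 and 0.257 with TEADi and 0.177, 0.176 and 0.170 with GFP, and for isoleucine that of IARS2 to IARS was 1.01, 0.995 and 1.02 with TEADi and 0.785, 0.731 and 0.729 with GFP. These ratios compare libraries and say nothing of which transcript is more abundant, since CPM are not scaled to transcript length.

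**Figure D4:**
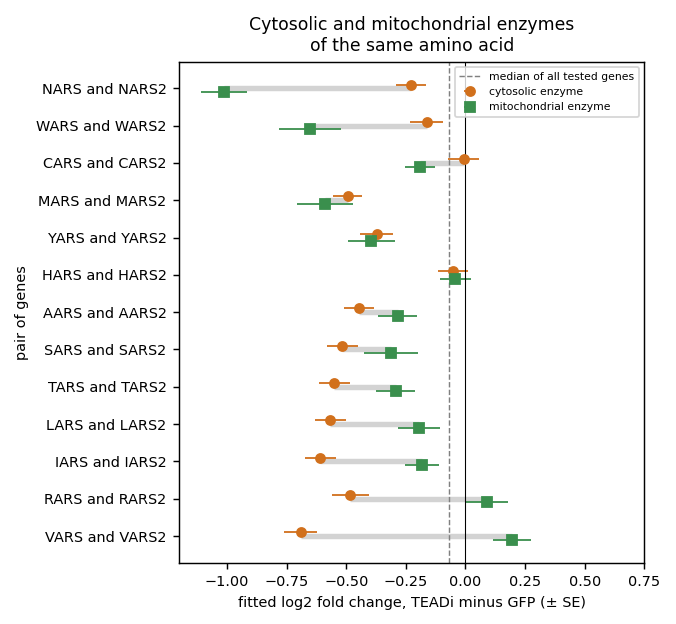
Fitted log2 fold change, TEADi minus GFP, with its SE (horizontal axis) of the cytosolic (circles) and mitochondrial (squares) enzyme of each of 13 amino acids, ordered by the difference between them. The asparaginyl pair at the top has its mitochondrial member at -1.01 and its cytosolic member at -0.23, and the valyl pair at the bottom has its mitochondrial member at 0.20 and its cytosolic member at -0.69.

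Synthetases fall into classes I and II, which have unrelated catalytic folds, and EPRS holds a domain of each. Among 19 class I genes 14 were called lower and 1 higher (median log2 fold change -0.37), and among 19 class II genes 14 were called lower and 0 higher (median -0.31), EPRS being counted in both. The lower calls were therefore spread over both classes.

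Of 12 synthetases described elsewhere as induced by ATF4, 11 were called lower; CARS was not. Their log2 fold changes had a median of -0.41. Of the 9 other cytosolic genes 5 were called lower, with a median of -0.48. The start regions of these genes were searched for the C/EBP-ATF response element, a site through which ATF4 and its C/EBP partners act, written as TGATGNAAN and searched on both strands from 250 bases before to 50 bases after each RefSeq start (GRCh38.p14). A start window was found for 30 of the 37 genes, and 8 of these (26.7%) held the letters, against 4.45% of all 27305 genes with a window. A gene counted where any of its windows matched, and the shares were not adjusted for the number of windows of a gene. They were 7 of the 10 ATF4-described genes with a window (AARS, CARS, GARS, IARS, MARS, NARS and TARS) and 1 of 20 other synthetase genes (YARS2). The matches are printed on the strand of the gene, with the matching letters in capitals and, for AARS, IARS, GARS and YARS2, flanking bases in lower case. The matches in CARS and MARS run across the start, and those in NARS and TARS lie after it, so these are printed without flanks. The search fixes every letter except those written N, so the likeness of the matches follows from it. Any link between a match and the change of its transcript was not tested.
AARS, chr16:70289666-70289714, minus strand: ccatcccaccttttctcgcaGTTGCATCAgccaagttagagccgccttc
IARS, chr9:92293698-92293731, minus strand: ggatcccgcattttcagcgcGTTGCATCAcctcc
GARS, chr7:30594824-30594872, plus strand: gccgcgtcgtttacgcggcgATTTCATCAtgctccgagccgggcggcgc
YARS2, chr12:32756066-32756114, minus strand: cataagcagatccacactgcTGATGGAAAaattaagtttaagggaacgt
CARS, chr11:3057418-3057426, minus strand: GTTGCATCA
MARS, chr12:57488063-57488071, plus strand: GTTGCATCA
NARS, chr18:57621814-57621822, minus strand: TGATGCAAC
TARS, chr5:33440966-33440974, plus strand: ATTGCATCA

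AARS, CARS, IARS and MARS hold the same 9 letters, NARS holds them on the opposite strand, and the log2 fold changes of these genes were -0.45, -0.01, -0.61, -0.49 and -0.23 in that order. The TEAD element, written as GGAATG and searched in the same way, was in the windows of 4 of 30 synthetase genes (13.3%), CARS, FARS2, WARS2 and YARS2, and of 16.7% of all genes with a window. A match describes letters in the window and is no evidence of binding, and its absence says nothing of sites elsewhere.

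In the list of uncharged tRNA sensing and the ATF4 branch, 21 of 32 tested genes were called lower and 6 higher (median log2 fold change -0.46). Beside this list and those that follow, 35.3% of all genes tested were called lower and 25.5% higher. ATF4 itself, chosen with its values known, stood at 86.8, 93.8 and 95.04 CPM with TEADi and at 130, 131 and 126 CPM with GFP. ASNS, asparagine synthetase, which makes the substrate of NARS and was chosen in the same way, stood at 6.12, 8.49 and 7.84 CPM with TEADi and at 23.6, 24.6 and 23.5 CPM with GFP. Both were lower in every TEADi library. By smallest p, the amino acid exchangers SLC7A11 (96.2 ± 3.54 CPM with TEADi, 205 ± 12.3 CPM with GFP) and SLC7A5 (176 ± 6.72 CPM with TEADi, 401 ± 39.5 CPM with GFP) and the mitochondrial folate enzyme MTHFD2 (57.7 ± 0.504 CPM with TEADi, 123 ± 12.7 CPM with GFP) led the falls. Against them, the mTORC1 inhibitor DDIT4 rose to 245 ± 11.3 CPM with TEADi, against 79.7 ± 3.57 CPM with GFP, and the lipoprotein receptor VLDLR and the transcription factor CEBPB rose too (log2 fold changes 1.61, 1.79 and 0.49).

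Genes that act on tRNA before and after charging were lower in most cases. Of 27 genes of tRNA processing and export 19 were called lower and 0 higher (median log2 fold change -0.45). ELAC2, which trims the 3′ end of precursor tRNA, averaged 83.8 ± 2.83 CPM with TEADi and 150 ± 9.81 CPM with GFP, the splicing endonuclease subunits TSEN15 and TSEN54 had log2 fold changes of -0.94 and -1.03, and the RNase P subunit RPP40 -0.86. Of 47 genes of tRNA modification 35 were called lower and 1 higher (median -0.38). The exception was TRMT6, the partner of TRMT61A in the enzyme that methylates adenosine in the T loop: TRMT6 averaged 122 ± 6.38 CPM with TEADi and 96.1 ± 12.5 CPM with GFP, while TRMT61A, its catalytic subunit, averaged 18.4 ± 1.26 CPM with TEADi and 41.1 ± 3.05 CPM with GFP. PUS1, a pseudouridine synthase, TPRKB and QTRTD1 had log2 fold changes of -0.83, -0.71 and -0.62.

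In the list of RNA polymerase III, which transcribes tRNA genes among others, 18 of 27 subunits and factors were called lower and 2 higher (median log2 fold change -0.29). Not every listed factor acts on tRNA genes, since the SNAPC genes and BRF2 serve other promoters. MAF1, which was called lower, is a repressor of the polymerase. POLR3G fell to 7.31 ± 0.691 CPM with TEADi, against 29.9 ± 3.83 CPM with GFP, and POLR3GL, the alternative form of the same subunit, rose to 17.6 ± 1.06 CPM with TEADi, against 12.4 ± 0.987 CPM with GFP. SNAPC1, POLR3C and POLR3K fell (log2 fold changes -1.45, -1.11 and -1.05), and SNAPC3 rose (0.43). Among 7 genes that deliver charged tRNA to the ribosome 6 were called lower and 0 higher (median -0.47). EEF1A1, the cytosolic carrier of charged tRNA, averaged 5449 ± 93.2 CPM with TEADi and 9095 ± 1072 CPM with GFP, and EEF1D, EEF1B2 and EEF1G, the exchange factor subunits, had log2 fold changes of -0.58, -0.47 and -0.51. The editing factors AARSD1, DTD1 and DTD2, which clear wrongly charged tRNA, were all called lower (log2 fold changes -0.55, -0.54 and -0.55), and PRORSD1P of the same list did not reach the filter. The amidotransferase that makes mitochondrial glutaminyl-tRNA had its subunits QRSL1, PET112 and GATC called lower (-0.45, -0.24 and -0.26), while MTFMT, the formyltransferase of the mitochondrial initiator tRNA, was not called.

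**Figure D5:**
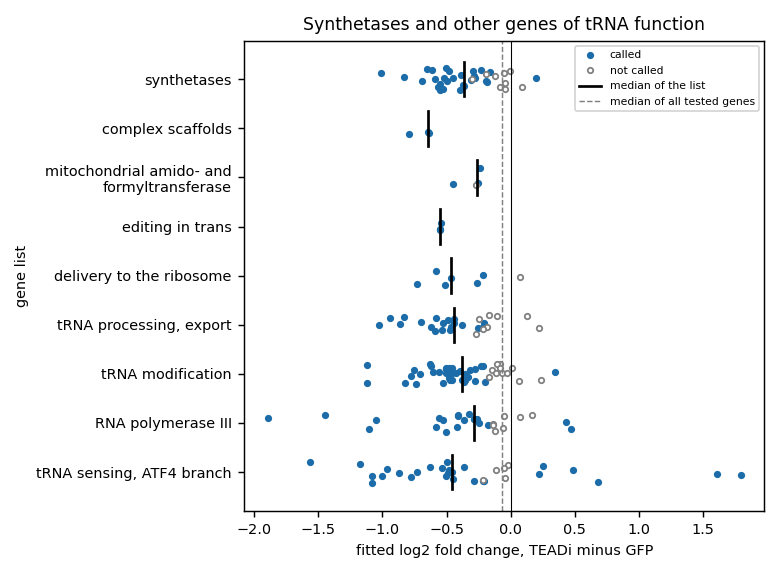
Fitted log2 fold change, TEADi minus GFP, of every tested gene of the synthetase family and of 8 other lists (1 point a gene). These lists cover tRNA function, RNA polymerase III and the ATF4 branch. Points are filled where called and have vertical scatter for legibility. The median of each list is a bar, and that of all genes tested is a dashed line at -0.07. All 9 medians lie left of the dashed line, between -0.26 for the mitochondrial amido- and formyltransferase genes and -0.65 for the complex scaffolds.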

How the data were processed

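Poly(A) RNA of 6 libraries was sequenced from TruSeq libraries, per the labels. The tools listed in the submitters' processing notes are Partek 8.0.19.0819, STAR 2.5.1 and Trimmomatic 0.36, with the build hg19; the quantifier, the annotation and the use of strand are not given in the sources used here. The authors deposited CPM scaled with TMM factors, in which the smallest value of a library stands for no reads, and a table with their ratio (also as a signed fold score) of TEADi to GFP and p-values from a test that it does not name. Most low values (82.8% to 84.2%) came within 0.1 of an exact multiple of their library's smallest value, but the rest did not. Whole reads could therefore not be recovered for every value, and no count test was made.

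All 6 columns matched the labels by name, with 0 left over. Entries with the same symbol were summed after subtracting the smallest value, which was then added once (19921 entries, 19437 genes). The 13640 genes reaching 1 CPM in 3 or more libraries were fitted on log2(CPM + 1) with limma 3.58.1 in R 4.3.3 (lmFit, eBayes with trend). Tests were two-sided, p-values were adjusted by Benjamini-Hochberg across these genes, and a call needed an adjusted p under 0.05; the code was tested on simulated data. The 17 alternatives changed scaling, pseudocount, filter, merging, variance trend, replicate block and libraries. Figures were drawn with matplotlib 3.10.9. The members, the lists and some tests were chosen with earlier results of these data known. Members called at a log2 fold change of at least 0.5 in size or called higher, and the pairs HARS and HARS2 and VARS and VARS2, are given in all libraries (15 genes), and the other 22 by means. Of each other list up to 4 called genes with the smallest p and up to 3 called against the majority are named. Library letters were not used as pairs: deviations from group means of libraries with the same letter had correlations of 0.08, -0.06 and -0.02 across genes. Coordinates are hg19 as in the authors' table (end as its stop minus 1), and promoter windows are RefSeq's on GRCh38.p14.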

Additional observations from a re-analysis of the deposited data

How the results depend on the processing

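The count of synthetase genes called lower was 27 and ranged from 21 to 28 over 17 alternatives, and 18 of the 27 were called lower in each of them, or 19, with VARS, leaving aside the restriction to assembled chromosomes. Over the alternatives, the share of all tested genes called lower ran from 24.1% (no filter) to 35.4% (pseudocount 5). GFP libraries A and B were both left out in 1 alternative, because epithelial markers differ between GFP libraries. The median log2 fold change was then -0.37 over the 37 genes and -0.06 over all genes tested. AARS2, FARS2, YARS2, WARS, CARS2, IARS2 and SARS2 then lost their calls, while PARS2 gained a call. In that fit the single GFP library was assumed to vary like the TEADi libraries. With the library letter as a replicate block 25 were called lower and 0 higher, WARS, IARS2 and VARS2 losing their calls. Of all genes tested, 34.8% were called lower and 25.6% higher with this block. The count called higher, 1, was 0 without a filter, without a variance trend and on assembled chromosomes, and 0 to 2 when single libraries were left out. EPRS lost its call with quantile normalization (limma adjusted p = 0.0734). Among uncalled genes the log2 fold change turned above 0 with equal totals, median-ratio factors and quantile normalization for CARS (0.0711, 0.0907 and 0.0953), HARS (0.0262, 0.0457 and 0.0584) and HARS2 (0.0365, 0.0559 and 0.0495), with the first pair of these for TARSL2 (0.0253 and 0.0430) and with the last pair for DARS (0.0147 and 0.0294). Leaving out single libraries, CARS ranged from -0.0347 to 0.0387 and TARSL2 from -0.0875 to 0.0297, and CARS was 0.0136 with GFP libraries A and B left out. The cause of these changes was not tested. Of the 36 members with a single entry, 33 had the same call in the authors' deposited table, which called LARS2 lower and did not call WARS or VARS2. In that table's annotation 11 members overlap a gene that reaches 10% or more of the member's level, among them MARS with DDIT3, KARS with TERF2IP, EARS2 with UBFD1, SARS2 with MRPS12 and YARS2 with DNM1L. Reads of such neighbours cannot be told apart here, since the use of strand is not given. Some, such as GTF2H4 with VARS2 and ZMAT2 with HARS2, also lie on the same strand as the member.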

Other observations

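VARS was not alone in changing its entry between libraries. Of 421 symbols with more than 1 entry in the deposited table, 130 with at least 10 CPM in every library had over 90% of their summed value in a single entry of each library, but not in the same entry in all 6.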
